A study of Mus musculus with 11 samples.

Results

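Pyy, Npy and the Y receptors Npy1r, Npy2r and Npy5r are 5 of the 49315 genes counted in neonatal mouse skin. Whole skin of 11 mice of the Foxp3-DTR model was profiled by bulk RNA-seq, with 1 mouse per library. In this model the Foxp3 locus drives the receptor for diphtheria toxin (DT), so that DT kills cells expressing Foxp3, the regulatory T cells (Tregs). The PBS label marks 2 Treg-sufficient mice, called control here. EarlyDT marks 3 mice given DT on postnatal day (P) 6 and P8 and harvested on P9 (ΔETreg), LateDT marks 3 mice given DT on P10 and P12 and harvested on P13 (ΔLTreg), and FullDT marks 3 mice given DT on P6, P8, P10 and P12 and harvested on P13 (ΔTreg). In its depletion scheme the paper gives both PBS and DT to Foxp3-DTR mice, but it calls the RNA-seq controls only Treg-sufficient. The titles of all libraries share a prefix, with no batch named in the treatment labels. The labels give no harvest day for the control mice, so that age and DT cannot be told apart in comparisons with control. The paper describes its bulk comparisons as age-matched, with control skin on P9 for ΔETreg and on P13 for ΔLTreg mice. Which of these ages the 2 control mice here had is not stated. The 5 genes were chosen by name because Pyy had one of the largest rises in ΔTreg skin, so values of Pyy that involve the ΔTreg or control mice are given as a description without a test. Npy and the receptors were chosen as its relatives.

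Pyy encodes peptide YY, a hormone best known from enteroendocrine L cells of the gut, which release it after a meal. Npy encodes neuropeptide Y, a close relative made by many neurons and released with noradrenaline from sympathetic nerve endings. Both are amidated peptides that act through the Y receptors, which couple to inhibitory G proteins (Gi). The peptidase encoded by Dpp4 trims the N terminus of both peptides, and the trimmed forms prefer the Y2 and Y5 receptors over the Y1 receptor.

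Sequencing depth was 23377571 to 34159435 counts per library, and depth was taken into account by expressing levels as counts per 1000000 (CPM) with TMM-scaled library sizes. Keratinocyte markers summed to between 12050 and 14860 CPM in every library, which fits the skin label. Foxp3 itself was barely detected. Control mice had 20 and 14 counts, ΔETreg mice 10, 16 and 11, ΔLTreg mice 23, 13 and 13, and ΔTreg mice 9, 19 and 18. The log2 fold change of Foxp3 against control was -0.49 (95% interval -1.12 to 0.14) in ΔETreg, -0.23 (-0.84 to 0.38) in ΔLTreg and -0.30 (-0.92 to 0.31) in ΔTreg skin (edgeR, adjusted p = 1, 0.738 and 0.546). A loss of Foxp3 mRNA larger than these bounds lies outside the intervals, and Foxp3 was not called lower in any DT group. In ΔETreg skin the interval still includes a log2 decrease of 1.12. These values rest on 9 to 23 counts per mouse and measure whole-skin mRNA, not the share of Tregs among cells. By flow cytometry, the paper reports efficient Treg depletion in skin on P9 in ΔETreg and on P13 in ΔLTreg mice. The group names stand for the treatment labels throughout.

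Pyy lies on the minus strand of chromosome 11 (GRCm38 102106676 to 102107832, ENSMUSG00000017311), with 4 annotated transcripts and 631 bases of merged exon. Npy lies on the plus strand of chromosome 6 (49822710 to 49829507, ENSMUSG00000029819), with 1 transcript and 566 exonic bases. The 250 bases before the start of each of these genes are shown because Pyy had the largest range of levels here and Npy is its closest relative, and were read from RefSeq (GRCm38.p6) at chr11:102107833-102108082 on the minus strand and chr6:49822460-49822709 on the plus strand. Capitals mark an E-box (CANNTG).
Pyy: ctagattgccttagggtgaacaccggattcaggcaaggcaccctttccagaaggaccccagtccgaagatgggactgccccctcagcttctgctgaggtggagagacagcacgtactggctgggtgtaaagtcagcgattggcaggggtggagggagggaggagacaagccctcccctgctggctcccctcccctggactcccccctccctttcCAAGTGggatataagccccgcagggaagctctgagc
Npy: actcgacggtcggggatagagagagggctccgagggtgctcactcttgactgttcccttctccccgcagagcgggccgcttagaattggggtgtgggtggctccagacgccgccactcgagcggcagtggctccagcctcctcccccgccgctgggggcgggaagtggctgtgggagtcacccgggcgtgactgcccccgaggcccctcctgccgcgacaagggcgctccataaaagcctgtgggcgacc
The Pyy window held 1 E-box, 36 bases before the start, and the Npy window held none, whereas 66% of 27025 RefSeq promoters of this length held at least 1. On either strand, neither window contained the STAT motif TTCNNNGAA (7.18% of promoters), the AP-1 motif TGANTCA (6.87%) or TATAAA (13% of promoters). GC content was 61.2% for Pyy and 69.2% for Npy.

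Pyy transcripts were almost absent from control and ΔETreg skin and abundant in ΔTreg skin. Raw counts were 2 and 2 in the control mice. The 3 ΔETreg mice had 2, 0 and 0 counts. ΔLTreg mice had 24, 7 and 4 counts, and ΔTreg mice had 2618, 4050 and 2620. Every ΔTreg mouse lay far above every other mouse, and the ΔLTreg mice also lay above all control and ΔETreg mice. Mean Pyy levels were 0.0749 ± 0.00681 CPM (SD, n = 2) for control and 0.0232 ± 0.0402 CPM (n = 3) for ΔETreg mice. They were 0.372 ± 0.307 CPM (n = 3) for ΔLTreg and 104.5 ± 20.8 CPM (n = 3) for ΔTreg mice. The pooled ΔTreg level was 1390 times that of control, with a 95% interval of 544 to 5120 that covers counting error alone. Against ΔLTreg skin, harvested at the same age after DT on P10 and P12 only, the ratio was 270 (194 to 388). Bulk libraries cannot tell a larger number of Pyy-expressing cells from more Pyy RNA per cell.

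Ranked by count within a library, Pyy stood between 1741 and 2870 from the top in the 3 ΔTreg mice and no higher than 15632 in the others. Among all genes tested, its fitted log2 fold change of ΔTreg against control, 10.37, was exceeded only by Gm4841 at 10.99, and Ubd, which encodes a ubiquitin-like protein induced by interferon-γ, came next at 9.07. Gm4841 had 1 and 0 counts in control and already reached 204, 185 and 12 counts in ΔLTreg mice.

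The only comparison of Pyy that involved neither the ΔTreg nor the control mice was that of ΔLTreg with ΔETreg skin. The pooled ratio was 15.9 (95% counting interval 4.08 to 136), and the groups did not overlap. The ratio rests on 35 counts against 2, of which 24 came from 1 ΔLTreg mouse and 2 from 1 ΔETreg mouse. These mice also differed in age, P13 against P9, and dosing window and age cannot be told apart. Pyy passed the filter on low counts only through the ΔTreg libraries, so no p-value is given for this comparison.

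**Figure D1:**
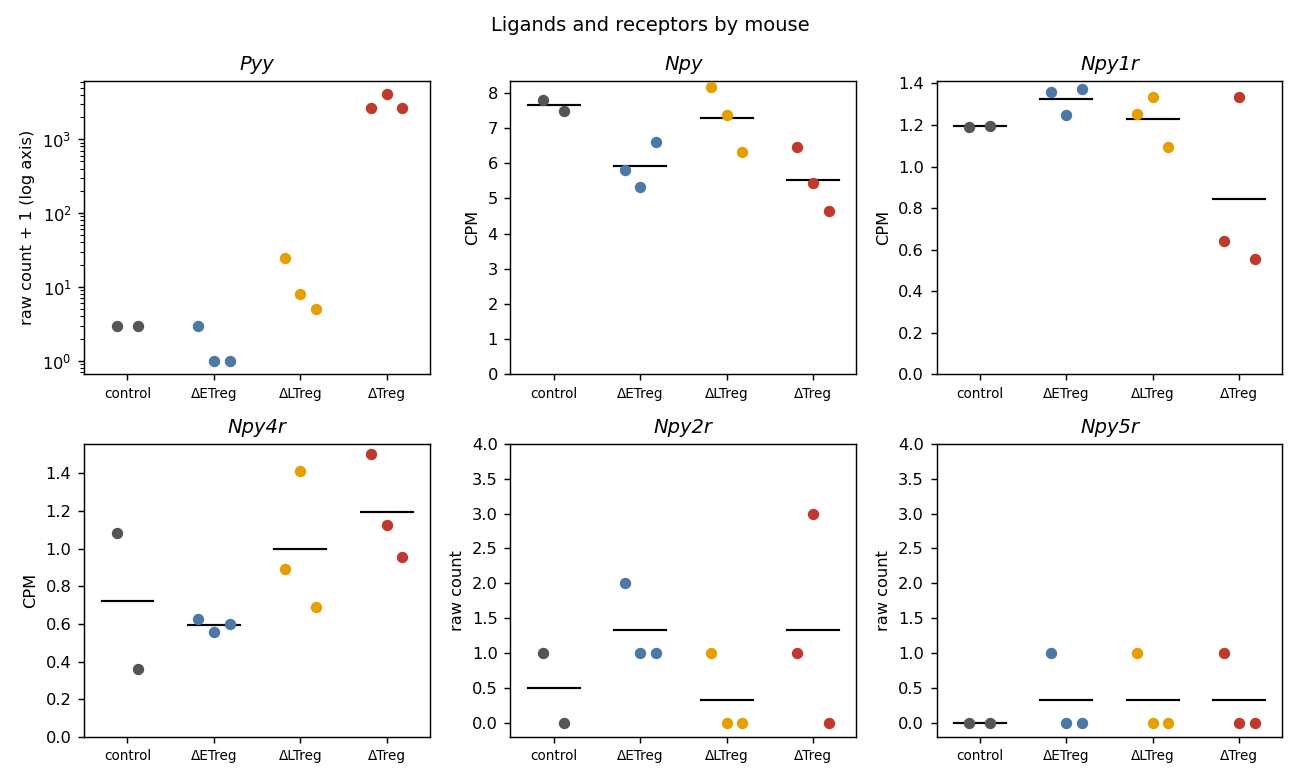
Raw count + 1 on a log axis (Pyy), CPM (Npy, Npy1r, Npy4r) or raw counts (Npy2r, Npy5r) in each mouse, by group, with horizontal lines at group means in all panels but that of Pyy. The ΔTreg mice sit at 2618 to 4050 Pyy counts, above all others, while Npy2r and Npy5r never exceed 3 counts.

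Npy, the other ligand, did not follow Pyy. Counts were 223 and 188 in control and 167, 162 and 154 in ΔETreg mice. In ΔLTreg mice they were 274, 188 and 202, and in ΔTreg mice 151, 183 and 150. Mean Npy levels were highest in control, at 7.65 ± 0.227 CPM (SD, n = 2), followed by ΔLTreg mice at 7.29 ± 0.923, ΔETreg mice at 5.91 ± 0.642 and ΔTreg mice at 5.52 ± 0.921 CPM (n = 3 each). Each pair of neighbours in this order overlapped. ΔTreg skin was below control in 3 of 3 mice, with a log2 fold change of -0.48 ± 0.16 (SE), and narrowly missed the threshold (edgeR, adjusted p = 0.0528). Against ΔLTreg skin the log2 fold change was -0.41 ± 0.14 with an adjusted p of 0.075, and here 1 ΔTreg mouse lay above the lowest ΔLTreg mouse.

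Across all genes, 21.5% passed in ΔTreg against control (12.1% higher and 9.39% lower) and 16.8% in ΔTreg against ΔLTreg (10.7% higher and 6.11% lower). Npy was called in 0 of 6 pairs of groups by edgeR and in 0 by DESeq2, and in 3 of the 6 its unadjusted p was under 0.05 with either tool. One of those 3 was ΔETreg against control (log2 fold change -0.38 ± 0.16, adjusted p = 1), where 0.00544% of genes passed. ΔLTreg and control skin overlapped for Npy (-0.07 ± 0.16, adjusted p = 0.857), against a background of 4.55% called. Between ΔTreg and ΔETreg skin, where 23.1% of genes passed, the difference in Npy was -0.10 (95% interval -0.39 to 0.18, adjusted p = 0.668).

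Divided by exon length, the balance of the ligands differed between groups. Npy stood at 13.5 CPM per kb in control and 9.74 in ΔTreg skin, with ΔLTreg at 12.9 and ΔETreg at 10.5. The same measure for Pyy was 0.119 in control and 165.6 CPM per kb in ΔTreg skin, with ΔLTreg at 0.589 and ΔETreg at 0.0368. Npy was the more abundant transcript in every group but ΔTreg, where Pyy was. The remaining family ligand, Ppy, which encodes pancreatic polypeptide, was listed at 0 counts in 10 mice and at 1 count in 1 ΔTreg mouse.

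Npy1r, which encodes the Y1 receptor that mediates vasoconstriction by neuropeptide Y, was the highest-expressed member receptor at 34 and 30 counts in control. ΔETreg mice had 39, 38 and 32 counts and ΔLTreg mice 42, 34 and 35. In the ΔTreg group the counts were 15, 45 and 18, so that 2 mice were below all others and 1 was not. The log2 fold change was -0.47 ± 0.32 (SE) against control (edgeR, adjusted p = 0.341) and -0.50 ± 0.28 against ΔLTreg skin (adjusted p = 0.264). One mouse set this outcome: without the ΔTreg mouse with 45 counts the values were -0.997 (adjusted p = 0.0165) and -1.03 (adjusted p = 0.0107). With all mice, Npy1r passed in 0 of 6 pairs of groups in edgeR and DESeq2, and its unadjusted p was under 0.05 in 0 of 6 with either tool. Per kb, Npy1r stood at 0.345 CPM in control and 0.245 in ΔTreg skin, with ΔETreg at 0.384 and ΔLTreg at 0.355.

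Npy2r and Npy5r, which encode the Y2 and Y5 receptors, were at the limit of detection and did not pass the filter on low counts. Npy2r was read at 1 and 0 counts in control and at 2, 1 and 1 in ΔETreg mice. ΔLTreg mice had 1, 0 and 0 counts of Npy2r and ΔTreg mice 1, 3 and 0. Npy5r had at most 1 count in any mouse and a total of 0 in control and 1 in each DT group. A count of 0 is compatible with up to 3 counts at the same depth, so a fall or a small difference in either receptor was not detectable here. A rise as large as that of Pyy would have been visible and was not seen for either receptor. Npy5r and Npy1r are neighbours on chromosome 8, on opposite strands with a gap of 9.06 kb, and only Npy1r was detected above this floor.

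Of the receptors outside the 5 genes, Npy4r, whose product prefers pancreatic polypeptide, had 31 and 9 counts in control and 18, 17 and 14 in ΔETreg mice. ΔLTreg mice had 30, 36 and 22 counts of Npy4r and ΔTreg mice 35, 38 and 31. The ΔTreg mice overlapped the control mice and lay above all ΔETreg mice. None of the 6 pairs passed, and the lowest adjusted p was 0.087, for ΔTreg against ΔETreg (log2 fold change 0.98 ± 0.38, SE). Against control the value was 0.68 ± 0.42 (adjusted p = 0.282), and without the control mouse with 31 counts it was 1.70 (adjusted p = 0.043). Npy6r, read at 0 to 6 counts, did not pass the filter. Its counts were 4, 6 and 6 in ΔLTreg mice and between 0 and 2 in all others. Without the filter the difference of ΔTreg from ΔLTreg skin had an unadjusted p of 0.0029 and an adjusted p of 0.0308 (edgeR). DESeq2 gave it an unadjusted p of 0.0138 and no adjusted p, and no call is read from counts this low.

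Genes that make, cut or transduce these peptides moved in both directions in ΔTreg against control skin. Among 9 genes for peptide maturation and cleavage, 7 were tested, and in ΔTreg against control 1 rose and 2 fell, where 12.1% of all genes tested rose and 9.39% fell. Cpe, which encodes the carboxypeptidase that trims prohormone fragments, rose from 193.2 ± 16.3 to 260.2 ± 12.3 CPM (log2 fold change 0.43 ± 0.095, SE, adjusted p = 0.00826). Pam, which encodes the enzyme that amidates peptides such as these ligands, decreased by 0.70 on the log2 scale (SE 0.17, adjusted p = 0.0125). Without 1 control mouse (a different one for each gene), Cpe and Pam missed the threshold, at adjusted p = 0.102 and 0.122. Fap, which encodes a fibroblast-surface relative of the Dpp4 peptidase, had 450 and 431 counts in control and 203, 319 and 330 in ΔTreg mice (log2 fold change -0.80 ± 0.11, adjusted p = 0.000439). It had also fallen in ΔLTreg skin (-0.71 ± 0.11, adjusted p = 0.00528), where no other gene of the list passed. In ΔTreg against ΔLTreg skin, of the same age, 0 of the 7 genes rose and 1 fell, beside 10.7% and 6.11% of all genes. Cpe (0.12 ± 0.084), Pam (-0.19 ± 0.15) and Fap (-0.08 ± 0.099) did not pass in it (edgeR, adjusted p = 0.364, 0.435 and 0.632). Dpp4 itself stood at 73.7 ± 6.03 CPM in control and 74.2 ± 3.85 in ΔTreg skin, and at 86.4 ± 3.43 CPM in ΔLTreg skin it was above the ΔTreg level (ΔTreg against ΔLTreg, -0.22 ± 0.057, adjusted p = 0.0223). That call was lost without any 1 of 3 mice, at adjusted p = 0.065 to 0.088. The sum of fibroblast markers, carried mostly by Col1a1 and Col1a2, was 13040 to 14910 CPM in control and 6649 to 7443 CPM in ΔTreg skin. In ΔLTreg skin it was 6200 to 13410 CPM. In ΔTreg against control 3 of 5 markers were lower, beside 9.39% of all genes, and none was at the floor of 3 counts. In ΔLTreg against control, where Fap also fell, 1 of 5 was lower, beside 4.55% of all genes called in either direction. The part of fibroblast content in these values was not tested.

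Of 15 genes for Gi proteins, arrestins, potassium channels and adenylyl cyclases, 13 were tested, and 3 rose and 1 fell in ΔTreg against control, beside 12.1% and 9.39% of all genes. Arrb2 and Arrb1 encode β-arrestins, which switch off and internalise G protein-coupled receptors. Arrb2 rose from 23.4 ± 1.24 to 34.4 ± 1.60 CPM (log2 fold change 0.55 ± 0.070, SE, adjusted p = 0.000302) and Arrb1 from 50.6 ± 3.65 to 71.3 ± 1.83 CPM (0.49 ± 0.091, adjusted p = 0.00294). Gnao1, which encodes the Go α subunit, had 186 and 142 counts in control, 156, 95 and 120 in ΔLTreg and 77, 113 and 122 in ΔTreg mice. It decreased by 0.81 on the log2 scale in ΔTreg skin (SE 0.14, adjusted p = 0.00164) and by 0.59 in ΔLTreg skin (SE 0.13, adjusted p = 0.034), the latter a call kept in only 3 of 11 fits with 1 mouse left out (adjusted p = 0.0186 to 0.187). The third gene that rose was Adcy7, an adenylyl cyclase (0.56 ± 0.14, adjusted p = 0.0163), which missed the threshold without 1 control mouse (adjusted p = 0.173) or 1 ΔTreg mouse (adjusted p = 0.0558). The median log2 fold change of the list against control was 0.02, against -0.01 over all genes tested. In ΔTreg against ΔLTreg skin, of the same age, 3 of the 13 genes rose and 0 fell, beside 10.7% and 6.11% of all genes. Gnao1 did not pass in it (-0.22 ± 0.12, edgeR, adjusted p = 0.268).

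Pyy was not accompanied by a general rise of neuropeptides. Of 21 other peptide genes only 8 were tested, and in ΔTreg against control 2 rose and 2 fell (all genes, 12.1% and 9.39%). Adm, which encodes the vasodilator adrenomedullin, rose from 7.47 ± 0.533 to 15.3 ± 1.42 CPM (log2 fold change 1.03 ± 0.18, SE, adjusted p = 0.00177). Nts, which encodes neurotensin, had 9 and 8 counts in control and 14, 26 and 26 in ΔTreg mice (1.2 ± 0.31, adjusted p = 0.0178), but at this depth the call was lost in DESeq2 (adjusted p = 0.115) and without any of 4 single mice. Edn3, which encodes endothelin 3, a factor for melanocyte precursors, fell from 190 and 115 counts in control to 61, 55 and 56 in ΔTreg mice (-1.52 ± 0.22, adjusted p = 0.000683). It was also lower in ΔTreg than in ΔLTreg skin (-0.93 ± 0.21, adjusted p = 0.00983). Cck, which encodes cholecystokinin, another gut peptide, was at 20 and 14 counts in control and 9, 2 and 2 in ΔTreg mice (-2.06 ± 0.63, adjusted p = 0.0392), a call lost in DESeq2 (adjusted p = 0.0774) and without any 1 of 5 mice. The sensory peptides encoded by Calca and Tac1 were read at 0 to 7 and 0 to 8 counts. In ΔTreg against ΔLTreg skin, of the same age, 1 of the 8 tested peptide genes rose and 1 fell, beside 10.7% and 6.11% of all genes. Adm did not pass in it (0.455 ± 0.15, edgeR, adjusted p = 0.0601).

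Of 25 receptor genes for other peptides, 24 were in the table and 12 were tested, and in ΔTreg against control 3 rose and 2 fell, compared with 12.1% and 9.39% over all genes. Tacr1, which encodes the receptor for substance P, showed the largest difference among the tested genes of the 4 pathway lists. It had 2 and 7 counts in control and 7, 8 and 6 in ΔETreg mice, then 54, 29 and 22 in ΔLTreg and 73, 54 and 69 in ΔTreg mice. Both P13 groups lay above all control and ΔETreg mice. Between these P13 groups the mice overlapped in CPM, and ΔTreg against ΔLTreg did not pass (0.97 ± 0.33, SE, edgeR, adjusted p = 0.0724). The log2 fold change was 3.71 ± 0.54 (SE) in ΔTreg against control (adjusted p = 0.000741), 2.74 ± 0.58 in ΔLTreg against control (adjusted p = 0.0261) and 2.16 ± 0.46 in ΔLTreg against ΔETreg skin (adjusted p = 0.0217), where 6.38% of all genes passed. The last comparison sets P13 against P9 mice, and age and dosing window cannot be told apart in it. Without either control mouse, the ΔLTreg difference from control missed the threshold, at adjusted p = 0.173 and 0.0518, as did that from ΔETreg skin without any 1 of 4 mice. In ΔTreg against ΔLTreg skin 1 of the 12 receptor genes rose and 0 fell, beside 10.7% and 6.11% of all genes. That gene was Calcrl, which encodes the receptor shared by adrenomedullin and CGRP (0.63 ± 0.16, adjusted p = 0.0193). Its partner Ramp1 did not pass (-0.27 ± 0.15, adjusted p = 0.254). Against control, Calcrl rose by 0.81 ± 0.18 (adjusted p = 0.00963), and Ramp1 decreased by 0.68 (SE 0.17, adjusted p = 0.0141). Both calls were lost without the same control mouse (adjusted p = 0.0923 and 0.138), and that of Ramp1 also without 1 ΔTreg mouse (adjusted p = 0.0511).

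**Figure D2:**
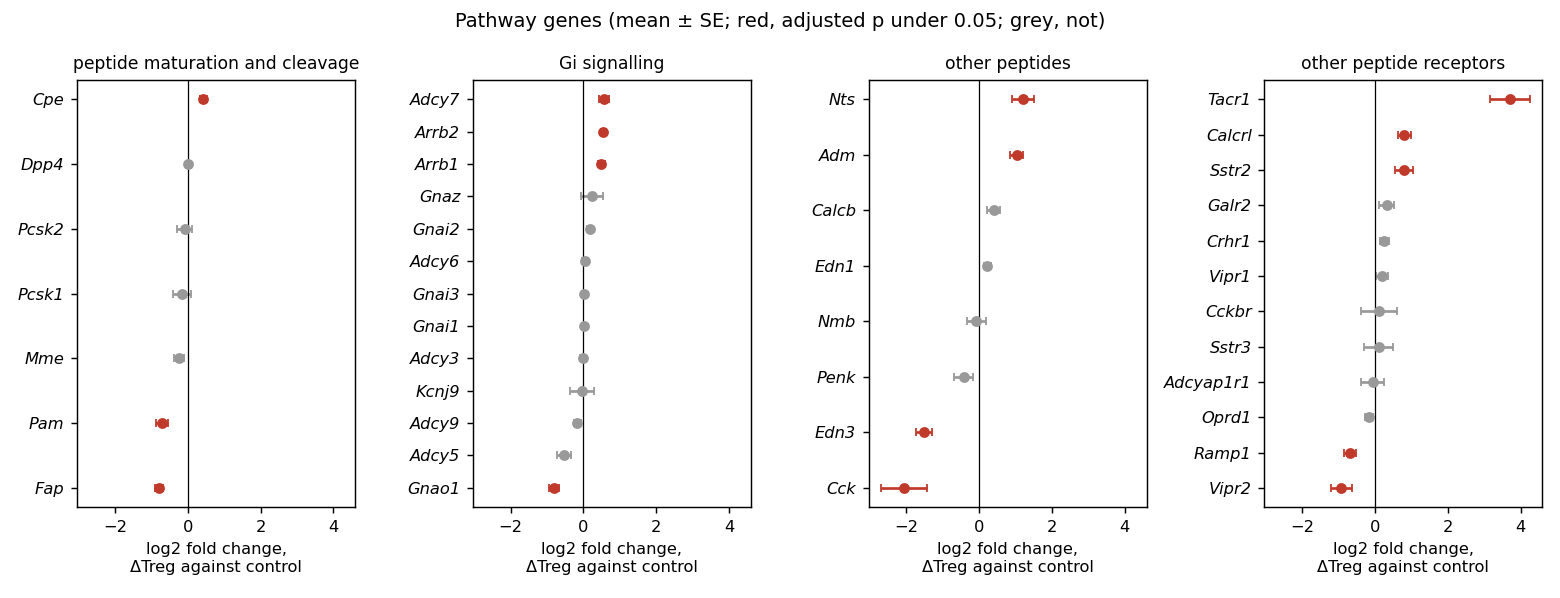
Log2 fold change of ΔTreg against control skin with its SE (horizontal bars) for the tested genes of the 4 pathway lists, red where the adjusted p was under 0.05. Tacr1 lies farthest from 0 at 3.71, and each list holds genes on both sides of 0.

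Of the genes around Pyy, those with enough counts to be tested were not called in ΔTreg against control skin. Across all genes tested only 21.5% were called in that comparison, so the lack of calls does not set these few genes apart. Ppy, 5.36 kb downstream, was listed at 0 in all but 1 mouse, and Gm11584, a processed pseudogene 5.42 kb upstream, had 0 counts in all 11. Nags, 37.68 kb upstream, had at most 3 counts. Mpp2, 18.16 kb downstream, had 217 and 185 counts in control and 174, 288 and 284 in ΔTreg mice (log2 fold change 0.15 ± 0.11, SE, adjusted p = 0.399). Gm11585, a processed pseudogene 16.24 kb upstream, differed by -0.28 ± 0.19 between the same groups (adjusted p = 0.313). The endothelial gene Cd300lg, 51.06 kb downstream, was higher in ΔTreg than in ΔETreg skin (0.39 ± 0.098, adjusted p = 0.0136; 0.0534 and 0.0551 without either of 2 mice) and differed by 0.23 ± 0.11 from control (adjusted p = 0.169).

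**Figure D3:**
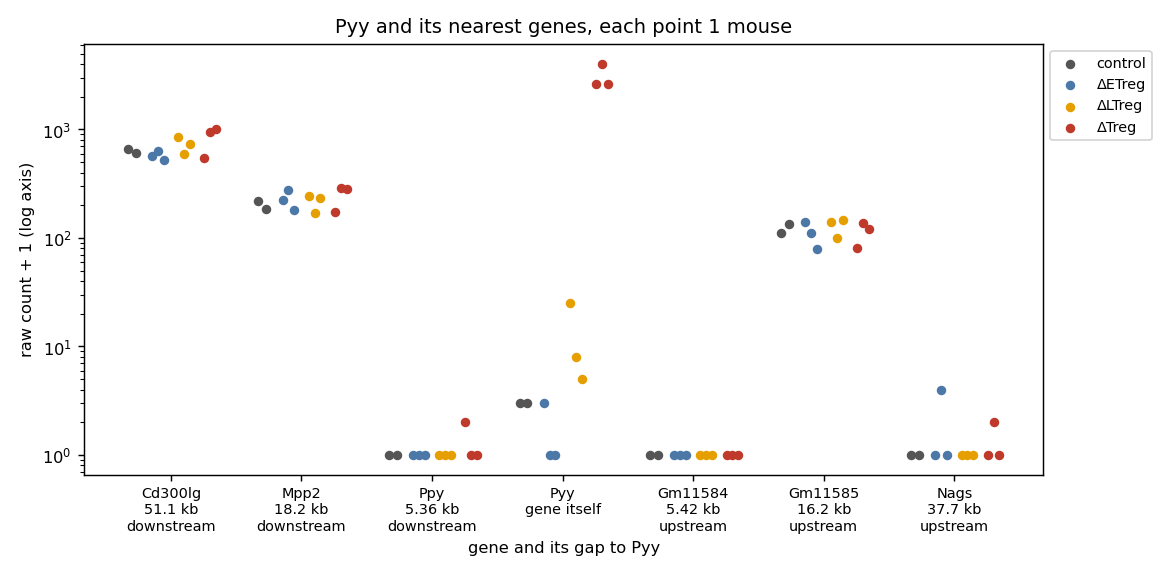
Raw count + 1 (log axis) of Pyy and the 3 nearest annotated genes on each side, by group, with the gap to Pyy in kb under each name. Pyy alone separates the ΔTreg mice, at 2618 to 4050 counts, from the rest, while Ppy, Gm11584 and Nags stay at 0 to 3 counts.

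The genes whose log2 CPM was most like that of Pyy over the 11 mice were H2-T22 (Pearson r = 0.994), Serpina3i (0.993), Tapbp (0.993), Il18r1 (0.992) and Gsdmc2 (0.992). H2-T22 encodes a class I-like histocompatibility protein and Tapbp the chaperone tapasin, which loads peptides onto class I molecules. Gsdmc2, a gasdermin, had the pattern closest to on and off, with 2 and 2 counts in control, 0 in each ΔETreg mouse, 5, 4 and 1 in ΔLTreg and 319, 377 and 380 in ΔTreg mice. H2-T22 had 592 and 508 counts in control and 3599, 5781 and 4371 in ΔTreg mice. Since ΔTreg mice stand apart from the other 8 for all 5 genes, these values describe that split and not a graded relation. For Npy the likest were Atp6v0d2 (0.928), Pdf (0.923) and BC051226 (0.919), and for Npy1r 4930480K23Rik (0.957), Gm12436 (0.927) and Gm15894 (0.908).

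Summed markers of cells known to make these peptides did not rise with Pyy. Of 8 enteroendocrine markers, Gip was at 0 in all mice, Neurod1 and Insl5 had at most 1 count and Gcg at most 4. The enteroendocrine sum, carried mostly by Sct, was 11.8 to 16.6 CPM in control and 10.4 to 13.2 in ΔTreg skin. Pancreatic islet markers, 4 of 6 of which never exceeded 3 counts, summed to at most 0.296 CPM in any mouse. Of 6 gut epithelium markers, Cdx2 had at most 1 count, and their sum was 0.717 to 1.12 CPM in control and 0.897 to 1.22 CPM in ΔTreg skin. Cdx1, 1 of 2 tested, had 3 counts in each control mouse, 14 to 26 in ΔLTreg and 5 to 14 in ΔTreg mice. Against control its log2 fold change was 2.42 ± 0.54 (SE) in ΔLTreg (edgeR, adjusted p = 0.0325) and 1.28 ± 0.61 in ΔTreg skin (adjusted p = 0.168). Muc2, the other tested, was at -0.48 ± 0.43 and -0.30 ± 0.43 and passed in neither. Merkel cell markers summed to 38.3 to 45.1 CPM in control and 24.4 to 33.4 CPM in ΔTreg skin, with 1 of 6 tested lower, none higher and Atoh1 at 0 to 3 counts. Across all genes tested, 12.1% were higher and 9.39% lower in ΔTreg against control. Of 5 sympathetic markers, which bear on Npy, 4 were tested and none passed in ΔTreg against control, and the sum of the 5 was 15.3 to 16.9 CPM in control and 11.5 to 15.2 in ΔTreg skin. Dbh, which encodes the enzyme that makes noradrenaline, was at 0 to 2 counts.

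Of the sensory neuron markers reported here, Scn10a, Prph, Calca and Tac1 had at most 9 counts in any mouse. Trpv1, which encodes the capsaicin receptor and was named after its values were seen, rose in both ΔLTreg (1.27 ± 0.22, adjusted p = 0.0113) and ΔTreg skin (0.98 ± 0.23, adjusted p = 0.0102) against control. Without 1 control mouse these calls were lost, at adjusted p = 0.0748 and 0.0752 in ΔLTreg and 0.0771 in ΔTreg skin.

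Immune markers moved in the same mice as Pyy. T cell markers summed to 40.6 to 49.1 CPM in ΔTreg skin, with 5 of 5 higher than in control, beside 12.1% of all genes tested. Their sum was 10.3 to 12.6 CPM in control, 10.1 to 12.9 in ΔETreg and 12.6 to 15.4 CPM in ΔLTreg skin. Cd8a, the CD8 α chain, had 0 to 3 counts in the other 8 mice and 238, 236 and 296 in ΔTreg mice. With so few counts elsewhere, Cd8a entered the fit only through the ΔTreg mice, so its call among the 5 carries no weight. Myeloid markers summed to 113.1 to 157.9 CPM in control and 225.9 to 285.6 in ΔTreg skin (3 of 5 higher), and neutrophil markers to 13.2 to 14.0 in control and 32.1 to 39.5 CPM in ΔTreg skin (4 of 4 tested higher). No T cell or myeloid marker was at the floor of 3 counts in all mice, whereas the neutrophil marker Ly6g had at most 2 counts. The part of these cells in the Pyy level was not tested. Endothelial markers, which bear on Npy1r, stood at 181.8 to 202.8 CPM in control and 196.6 to 204.7 CPM in ΔTreg skin, and mural markers at 468.9 to 520.7 and 429.6 to 460.8 CPM. Of 5 endothelial markers 1 was higher and 2 were lower in ΔTreg than in control skin, and of 6 mural markers 1 was higher and 4 were lower. Over all genes tested, the shares in that comparison were 12.1% higher and 9.39% lower.

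**Figure D4:**
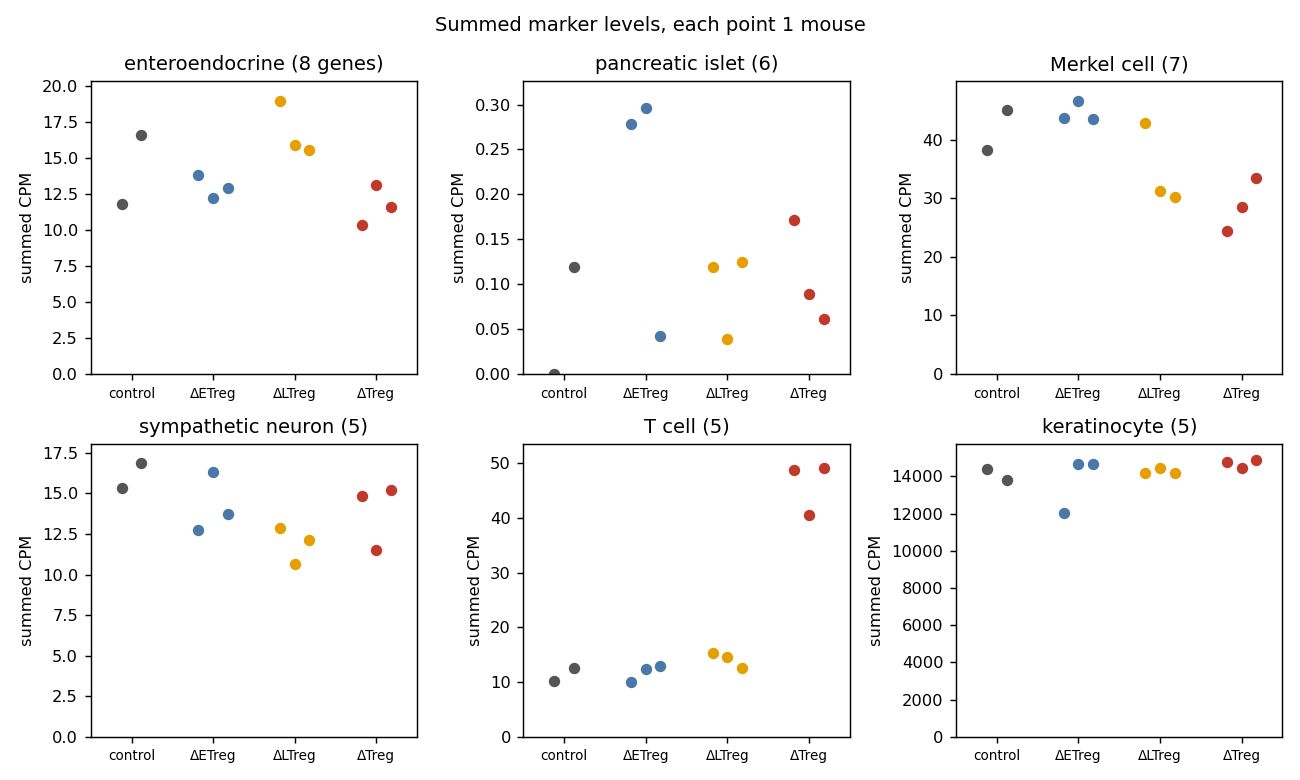
Summed CPM of 6 marker lists in each mouse, by group, with the number of genes of each list in brackets. The ΔTreg mice stand above all others for T cell markers (40.6 to 49.1 CPM), but not for enteroendocrine, pancreatic islet or sympathetic neuron markers.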

How the data were processed

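Whole skin (a 4 mm biopsy per mouse) of 2 control, 3 ΔETreg, 3 ΔLTreg and 3 ΔTreg mice of the Foxp3-DTR model was sequenced. Per the labels, the authors used Trimmomatic 0.36 for trimming, STAR 2.5.2b for alignment to GRCm38 and featureCounts (Subread 1.5.2) for counting unique exonic reads, and deposited raw counts of 49315 genes. Strandedness, and whether poly(A) selection or rRNA depletion was used, are not given in the sources used here, so overlapping antisense reads would not be separated (the 5 genes overlap no other annotated gene).

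Groups came from the treatment labels. Counts were fitted with edgeR 4.0.16 in R 4.3.3 on all 11 libraries (filterByExpr by group, TMM, quasi-likelihood F test), with Benjamini-Hochberg adjustment over the 18375 genes passing the filter and a threshold of 0.05. The SE is that of the fitted log2 fold change. Ratios of pooled Pyy counts carry exact counting intervals, which cover counting error only. Gene models and exon lengths came from GENCODE M21, which held 48970 of the IDs. The test was checked on simulated data. DESeq2 1.42.0 (the study's own tool), other scalings and filters, fits on 2 groups and leaving out each mouse were tried.

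Members and lists were chosen with earlier results of these data known. Genes named are the members, their family, the 3 genes of each pathway list with the smallest p in ΔTreg against control, the 3 nearest genes on each side of Pyy, the likest genes (5 for Pyy, 3 for Npy and Npy1r) and defining markers at or near 0. Foxp3, Gm4841, Ubd, Adcy7, Dpp4, Cck, Cd8a, Cdx1, Muc2 and Trpv1 were added after their values were seen. Some marker genes are not reported here and were left out of the marker lists and sums. A planned test of Pyy in ΔLTreg against ΔETreg is not reported, since Pyy passed the filter only through ΔTreg. Pairs of mice of a group differed by more than counting error.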

Additional observations from a re-analysis of the deposited data

How the results depend on the processing

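Scaling (TMM, RLE or library size alone) changed no call of Npy or Npy1r. Scaling also left the fitted log2 difference of Pyy in ΔLTreg against ΔETreg near 3.76, which was 3.95 in DESeq2, 3.76 without the filter on low counts and 2.78 to 6.48 when single mice were left out. No call is read from it, since Pyy was in the fit only through the ΔTreg libraries. It had no value in the fit on the 2 groups or with at least 10 counts in every library, where it failed the filter. Npy passed in 4 of 17 alternatives against control and 3 of 17 against ΔLTreg, once each without the filter (-0.48 and -0.41) and otherwise with a mouse left out, where it ranged from -0.61 to -0.37 (adjusted p = 0.0293 to 0.162) and from -0.54 to -0.30 (adjusted p = 0.0426 to 0.233). Npy1r ranged from -0.997 to -0.22 against control and from -1.03 to -0.26 against ΔLTreg. Npy2r and Npy5r had a value only without the filter or in DESeq2, with adjusted p from edgeR of 0.814 and 0.757 in ΔTreg against control and 0.678 and 1 against ΔLTreg. With a mouse left out, 3 small differences changed sign: Npy in ΔLTreg against control (-0.16 to 0.0264), Npy in ΔTreg against ΔETreg (-0.23 to 0.00882) and Npy1r in ΔLTreg against control (-0.0143 to 0.11). Leaving out 1 control mouse leaves a lone one, assumed to vary like the other groups.

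Over all genes, ΔETreg against control gave 1 call, 8 in DESeq2, 54 without the filter, 0 with at least 10 counts in every library, 0 on the 2 groups alone and 0 to 7 with a mouse left out. ΔLTreg against control gave 836, 1790 without the filter, 154 on the 2 groups alone and 292 to 903 with a mouse left out. ΔLTreg against ΔETreg gave 1173, 2173 without the filter, 540 on the 2 groups alone and 353 to 1248 with a mouse left out. With a mouse left out, ΔTreg against control gave 2026 to 4520 calls, ΔTreg against ΔETreg 3065 to 4806 and ΔTreg against ΔLTreg 1987 to 3385. Calls of the 4 pathway lists in ΔTreg against control ranged from 4 to 10 higher and 4 to 8 lower. Against ΔLTreg they ranged from 4 to 8 higher and 1 to 2 lower, with 9 higher without the filter. The cause of these changes was not tested. No paired analysis was possible because the labels give the mice of different groups no shared numbers.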
